A study of Drosophila melanogaster with 6 samples.

Results

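The genes described here are 10 components of insulin and TOR signalling in Drosophila melanogaster: InR, chico, Pi3K92E, Akt, foxo, Thor, Tor, S6k, Tsc1 and gig. They were taken by symbol from the 17562 genes of a count table, and all 10 were found and were among the 10632 genes that passed the filter on low counts and were tested. Tor is listed as mTor in the annotation used here. RNA-seq was performed on whole larvae at the wandering stage, when larvae have left the food shortly before they pupariate. The control was the strain w1118, with 3 libraries made from pools of 10 larvae each. The mutant was cdk8K185 in homozygous larvae, also with 3 libraries of 10 larvae each. This allele is a null allele of Cdk8 that also removes part of the neighbouring gene I-2, and homozygotes live to the pupal stage on maternal product, so that Cdk8 loss and I-2 loss cannot be told apart in this comparison. The mutant stock was kept over a balancer on a chromosome with an FRT site, which the control strain is not described as carrying. The paper that describes this stock states that it was outcrossed to w1118 for several generations. The labels list no treatment and no age beyond the stage.

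Insulin-like peptides bind the receptor InR, which recruits the adaptor Chico and the lipid kinase PI3K and so activates the kinase Akt. Akt phosphorylates the transcription factor FOXO and keeps it out of the nucleus, and it restrains the TSC complex, made of Tsc1 and the Gigas protein, which holds back the kinase TOR. Active TOR phosphorylates the ribosomal protein kinase S6K and the translation inhibitor encoded by Thor, and larval growth depends on this output. When insulin signalling is low, nuclear FOXO turns on InR and Thor, and for this reason transcripts of these 2 genes are commonly read as reporters of FOXO activity. The proteins are controlled largely by phosphorylation and location, which transcript counts do not measure.

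Of the 10 transcripts, 9 did not pass the test between the genotypes. S6k was higher in cdk8K185, and it was the 1 gene of the 10 past the threshold of an edgeR adjusted p under 0.05, while 0 were lower. Over all tested genes, 36.9% passed the same threshold, with 19.9% higher and 17.0% lower. At an unadjusted p under 0.05, S6k was again the 1 gene on the higher side and foxo the 1 gene on the lower side, against 48.6% of all tested genes in either direction and 23.1% on the lower side. DESeq2 and limma-voom, which are other tests for counts, also called S6k and none of the other 9 genes, with 33.7% and 34.9% of all tested genes called, and so did edgeR with the replicate number as a block (37.5%). The log2 fold change was above 0 for 8 of the 10 genes and for 51.5% of all tested genes. Its median over the 10 genes was 0.23 (range -0.29 to 0.46), and that of all tested genes was 0.02. The median size of the change regardless of direction was 0.26 for the 10 genes and 0.38 for all tested genes. Levels are given as CPM, the counts per 1000000 of a library's total after correction for library composition with TMM factors, unless another unit is named.

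**Figure D1:**
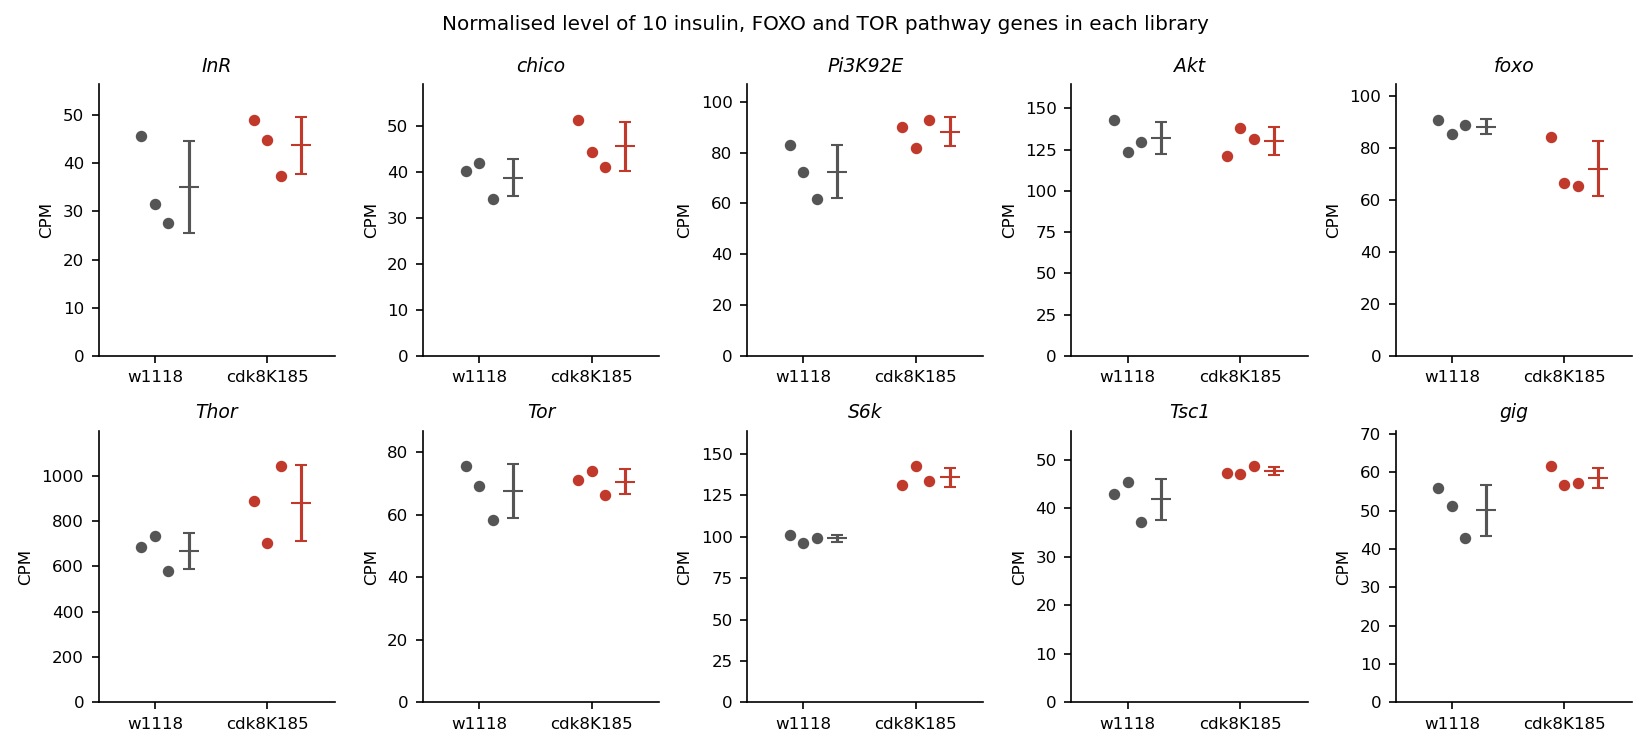
Points show the CPM of each library for the 10 genes, in grey for w1118 and red for cdk8K185, and the bar beside them is the mean with its SD (n = 3), each axis starting at 0. The S6k points lie apart, at 96.5 to 101 CPM in w1118 and 131 to 142 CPM in cdk8K185, while those of Akt and Tor overlap.

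Library quality and the larvae themselves were compared first. Total counts ran from 9208564 to 11724703 per library, and a count of 3 was worth 0.253 to 0.323 CPM, far under the level of every gene in the set. Cdk8 transcripts ran from 8.83 to 10.1 CPM in w1118 and from 4.73 to 7.22 CPM in cdk8K185. Those of I-2 ran from 27.2 to 34.6 CPM in w1118 and from 5.16 to 5.58 CPM in cdk8K185. Both were in the direction of the labels, with mutant means at 64.7% of the control mean for Cdk8 and 17.1% for I-2. Why reads still fell on Cdk8 in a null allele was not tested. Marker lists of 7 larval tissues were detected in all libraries. All 8 salivary gland markers were lower in cdk8K185, with a summed level of 28840 to 35290 CPM in w1118 and 1738 to 2691 CPM in the mutant. Of 7 fat body markers, 3 were lower and 0 higher (edgeR adjusted p under 0.05), with sums of 59130 to 69630 CPM in w1118 and 18760 to 39190 CPM in the mutant. Of 7 body wall muscle markers, 0 were called by edgeR, also at an unadjusted p under 0.05, and the sums overlapped (4523 to 11400 CPM in w1118 and 5077 to 10250 CPM in cdk8K185). Each of the lists for the nervous system, imaginal discs, gut and haemocytes had 1 marker higher and 1 lower at the adjusted threshold. At the same threshold, 19.9% of all tested genes were higher and 17.0% lower. Summed haemocyte markers were nevertheless lower in every mutant library (1103 to 1481 CPM in w1118 and 567.6 to 966.6 CPM in cdk8K185). Nervous system sums, given below, were also lower in every mutant library, and those of imaginal discs and gut overlapped. Without ap, however, disc sums were higher in every mutant library (120.6 to 136.9 CPM in w1118 and 156.4 to 185.2 CPM in cdk8K185). Among single genes, 29.2% of all tested were higher and 24.4% lower without overlap, and no such share was computed for sums. The 8 salivary gland markers fell unequally, to 1.14% of the w1118 mean for Sgs1 and 68.4% for fkh, so their sum does not measure tissue amount. In whole larvae, a smaller tissue and less RNA per cell cannot be told apart. Nor can a difference in timing within the wandering stage, for which the labels give no age. The part of tissue make-up or timing in the results was not tested.

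Receptor and adaptor transcripts came first in the order of the pathway. InR (FBgn0283499, BDGP6.54 3R:21570248-21619321, minus strand, 15 merged exons), the insulin receptor, had 45.8, 31.6 and 27.7 CPM in the w1118 libraries, with 49.0, 44.7 and 37.3 CPM in those of cdk8K185. The groups overlapped because w1118 replicate 1 lay as high as the mutant libraries, while the other controls lay below all of them. The means were 35.0 ± 9.52 and 43.7 ± 5.91 CPM (SD, n = 3), and the log2 fold change of 0.32 had a 95% interval from -0.16 to 0.79 (edgeR adjusted p 0.245). Without w1118 replicate 1, the log2 fold change was 0.56 and InR was called (edgeR adjusted p 0.0307), and 3 of the 10 genes passed the threshold then, against 31.0% of all genes. The same library was the lowest in muscle markers, with a summed level of 4523 CPM against 10280 and 11400 CPM in the other controls. Among the mutants the order was the other way. There, replicate 1 was highest in InR and in summed muscle markers, with 10250 CPM against 5903 and 5077 CPM. Whether muscle content bears on InR was not tested.

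The adaptor gene chico (FBgn0024248, 2L:10242512-10247078, minus strand) had 40.1, 41.9 and 34.1 CPM in the w1118 libraries, with 51.3, 44.2 and 41.0 CPM in those of cdk8K185. Chico is the fly insulin receptor substrate, and its loss makes small flies. The lowest mutant library lay just under the highest control library, and the log2 fold change of 0.23 (95% interval -0.05 to 0.52) was not past the threshold (edgeR adjusted p 0.168). An antisense RNA, asRNA:CR44995, shares 380 bp with chico exons but had 0 counts in all libraries. None of the other 9 genes shares exon bases with another annotated gene.

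Pi3K92E (FBgn0015279, 3R:20628972-20634732, minus strand) encodes the catalytic subunit of the class I lipid kinase that signals from InR. Its levels were 82.8, 72.4 and 61.9 CPM in the w1118 libraries, with 90.1, 81.8 and 92.8 CPM in those of cdk8K185. A single mutant library fell below the highest control library. The log2 fold change of 0.29 had an interval that just included no change (95% interval -0.0035 to 0.57, edgeR adjusted p 0.106). Without w1118 replicate 1 it was 0.39 and past the threshold (edgeR adjusted p 0.0388).

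Akt (FBgn0010379, 3R:16099228-16105670, plus strand), the kinase on which insulin signals converge, had 143, 124 and 130 CPM in the w1118 libraries, with 121, 138 and 131 CPM in those of cdk8K185. The libraries of both genotypes were interleaved. The log2 fold change was -0.02, with a 95% interval from -0.26 to 0.21 (edgeR adjusted p 0.871).

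The FOXO gene itself was the gene of the set with the lowest fold change. For foxo (FBgn0038197, 3R:14056945-14087978, plus strand), the levels were 90.7, 85.1 and 88.6 CPM in the w1118 libraries, with 84.1, 66.5 and 65.4 CPM in those of cdk8K185. The control libraries lay close together, and all mutant libraries were below them, the first by a narrow margin. The mean was 88.2 ± 2.83 CPM in w1118 and 72.0 ± 10.5 CPM in the mutant (SD, n = 3), and the log2 fold change was -0.29 (SE 0.12, 95% interval -0.57 to -0.02). After adjustment over all genes this was not past the threshold (edgeR adjusted p 0.0880), and 24.4% of all tested genes were likewise lower without overlap. Without cdk8K185 replicate 1 the log2 fold change was -0.43 and was called (edgeR adjusted p 0.0324), which made 2 of the 10 genes against 24.9% of all genes. On library totals alone, with no composition factor, the groups overlapped, at 78.9 to 87.5 CPM of the library total in controls and 72.9 to 84.9 in mutants, and the log2 fold change was -0.08.

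Thor (FBgn0261560, 2L:3478434-3479612, plus strand) encodes the inhibitor that binds the cap-binding factor eIF4E until TOR phosphorylates it. Counts per library ran from 5396 to 12115, the most of the 10 genes. Thor had 686, 735 and 581 CPM in the w1118 libraries, with 889, 705 and 1041 CPM in those of cdk8K185. The second mutant library lay within the control range, and the other mutant libraries lay above it. The means were 667 ± 78.7 and 878 ± 169 CPM (SD, n = 3), which gave a log2 difference of 0.40 with a 95% interval from -0.0069 to 0.80 (edgeR adjusted p 0.107). Without cdk8K185 replicate 2 it was 0.54 and past the threshold (edgeR adjusted p 0.0413), and 2 of the 10 genes were called then against 30.3% of all genes.

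Neither of the FOXO reporter genes of the set was called in the full comparison. InR passed the threshold when 1 control library was left out, and Thor when 1 mutant library was left out or when library totals replaced TMM factors. Their log2 fold changes stayed above 0 in each of the 13 refits with another scaling, filter, test or set of libraries, between 0.19 and 0.56 for InR and between 0.28 and 0.61 for Thor.

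**Figure D2:**
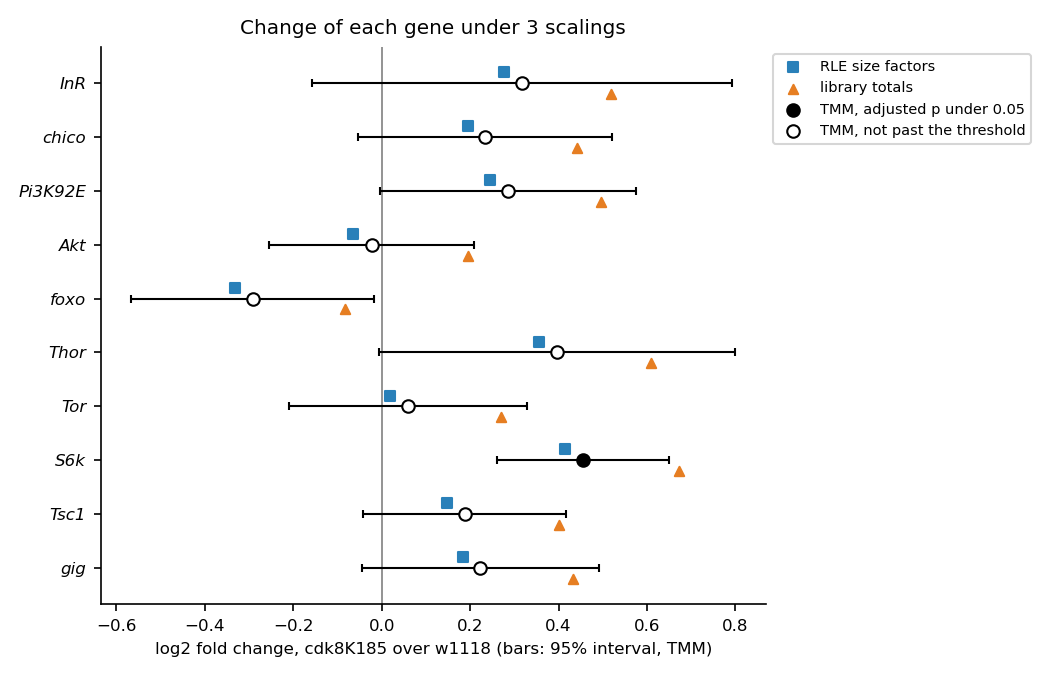
Circles show the log2 fold change of cdk8K185 over w1118 for each gene with TMM scaling, filled where the edgeR adjusted p was under 0.05, with bars for the 95% interval. Squares and triangles show the same gene scaled by RLE size factors and by library totals. S6k is the filled circle at 0.46, foxo lies at -0.29, and library totals move all points to the right.

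The TOR branch held the called gene. S6k (FBgn0283472, 3L:5797549-5810931, minus strand), the kinase that phosphorylates ribosomal protein S6 downstream of TOR, had 101, 96.5 and 99.3 CPM in the w1118 libraries, with 131, 142 and 134 CPM in those of cdk8K185. Every mutant library was above every control library, with a gap wider than the spread within either group. The mean rose from 99.0 ± 2.36 to 136 ± 5.92 CPM (SD, n = 3), which gave a log2 difference of 0.46 (SE 0.08, 95% interval 0.26 to 0.65, edgeR adjusted p 0.00530), which is 1.37-fold. The call held in all 13 refits, with adjusted p-values from 0.000114 to 0.0312 and log2 fold changes from 0.42 to 0.67. A change larger in size was found for 43.6% of all tested genes. S6k lies on chromosome arm 3L, as do Cdk8 and I-2. A linked sequence difference on that arm cannot be told apart here from the loss of Cdk8.

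Tor (FBgn0021796, 2L:13004480-13013197, plus strand), the kinase that phosphorylates S6K, had 75.4, 69.3 and 58.3 CPM in the w1118 libraries, with 71.2, 74.1 and 66.3 CPM in those of cdk8K185. The mutant libraries lay within the control range. The log2 fold change was 0.06, with a 95% interval from -0.21 to 0.33 (edgeR adjusted p 0.708).

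Both genes of the TSC complex, the brake on TOR, lay slightly higher in the mutant without passing the threshold. Tsc1 (FBgn0026317, 3R:24130307-24134654, plus strand) had 42.9, 45.4 and 37.3 CPM in the w1118 libraries, with 47.3, 47.2 and 48.7 CPM in those of cdk8K185. The mutant libraries were nearly equal and all above the controls, and the log2 fold change was 0.19 (95% interval -0.04 to 0.42, edgeR adjusted p 0.166). Its partner gig (FBgn0005198, 3L:20129181-20139010, plus strand), the fly Tsc2 gene, had 56.1, 51.3 and 43.0 CPM in the w1118 libraries, with 61.6, 56.8 and 57.2 CPM in those of cdk8K185. Here the lowest mutant library was above the highest control library by a margin under 1 CPM, and the log2 fold change was 0.22 (95% interval -0.05 to 0.49, edgeR adjusted p 0.160). Together with S6k, these made 3 genes of the 10 that were higher in all mutant libraries without overlap, and foxo was the 1 gene lower in all of them. Over all tested genes, 29.2% were higher and 24.4% lower without overlap.

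Scaling bears on the count of called genes. TMM factors were 0.891 to 0.965 in the w1118 libraries and 1.01 to 1.11 in the cdk8K185 libraries, so that the genotypes did not overlap in this factor. With library totals in place of TMM factors, log2 fold changes moved up by a median of 0.22 over all tested genes. Then 6 of the 10 genes were higher and 0 lower (edgeR adjusted p under 0.05), where 43.8% of all tested genes were called. Of all 10632 tested genes, 3452 were higher and 1203 lower in this setting. The 6 genes were S6k (log2 fold change 0.67), Thor (0.61), Pi3K92E (0.50), chico (0.44), gig (0.43) and Tsc1 (0.40), and InR at 0.52 was not among them (edgeR adjusted p 0.0773).

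To compare the genes with each other, CPM was divided by the length of the merged annotated exons. Thor stood apart, with 884 ± 104 CPM per kb in w1118 and 1163 ± 223 CPM per kb in cdk8K185 (SD, n = 3), 32.7-fold above the gene ranked after it in w1118. Only 1.01% of tested genes had a higher level per kb than Thor. Akt followed in w1118 at 27.0 ± 2.01 CPM per kb, then foxo at 21.4 ± 0.685 and S6k at 20.3 ± 0.483, whose ranges overlapped. Pi3K92E was at 14.96 ± 2.16 CPM per kb. The next genes, chico at 10.8, Tsc1 at 10.8, gig at 8.65 and Tor at 8.47 CPM per kb, each overlapped with the neighbour in the order. InR was lowest at 3.08 ± 0.837 CPM per kb, and 75.9% of tested genes had a higher level per kb. Merged exon length counts all annotated isoforms of a gene, 11367 bp for InR and 755 bp for Thor, so levels per kb are understated where long exons are used by few transcripts.

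In cdk8K185 the upper part of the order changed. S6k, at 27.8 ± 1.21 CPM per kb, stood beside Akt at 26.6 ± 1.74, with overlapping ranges, and Pi3K92E at 18.2 ± 1.19 stood beside foxo at 17.4 ± 2.55 CPM per kb, again with overlap. Below them came chico, Tsc1, gig, Tor and InR in the same order as in w1118.

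**Figure D3:**
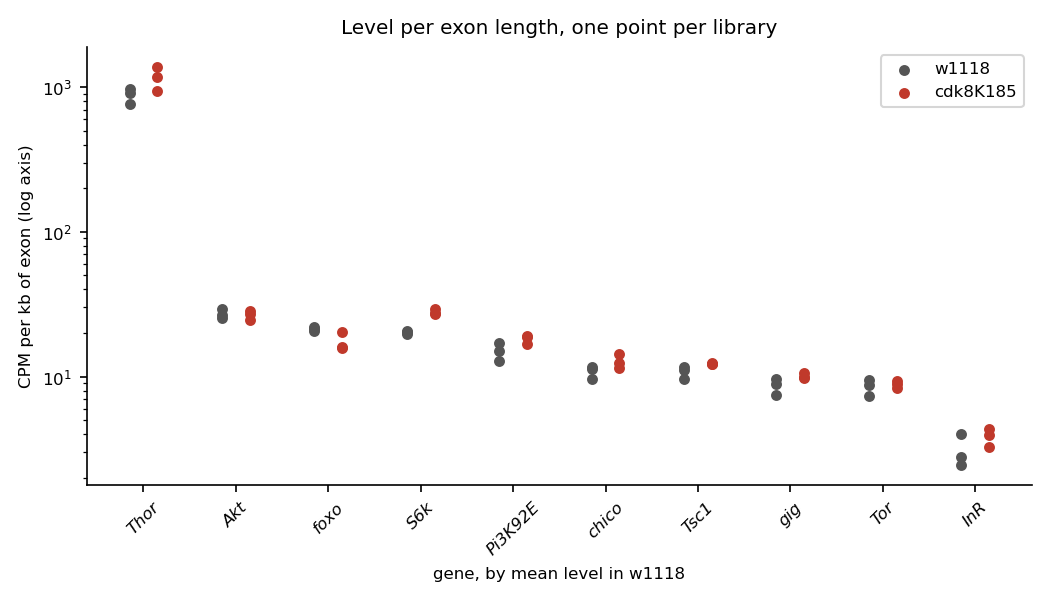
Each point is the level of a gene in 1 library in CPM per kb of merged exon, on a log axis, with w1118 in grey and cdk8K185 in red, and genes ordered by their mean in w1118. Thor lies between 769.7 and 1379 CPM per kb and InR between 2.43 and 4.31, with the other genes between them.

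Ratios between partner genes were formed within each library from levels per kb, since no scaling factor enters such a ratio. With 3 libraries against 3, an exact permutation test cannot give a p below 0.1, and 6 ratios were computed. Thor relative to eIF4E1, the gene of the factor its product binds, was 8.64, 9.39 and 7.41 in w1118 and 12.3, 10.1 and 14.7 in cdk8K185. All mutant libraries were above the controls, and the geometric mean was 1.44-fold higher (exact permutation test, two-sided, p = 0.1, 0.3 after Benjamini-Hochberg adjustment over the ratios). S6k relative to Tor was 2.19, 2.28 and 2.79 in w1118 and 3.01, 3.14 and 3.30 in cdk8K185, a 1.31-fold higher geometric mean (exact permutation p = 0.1, adjusted 0.3). These were the 2 of 6 ratios without overlap between the genotypes, and the ratios were chosen after values were seen. Any ratio without overlap gives p = 0.1 in the exact permutation test. Among single genes, 29.2% of all tested were higher and 24.4% lower without overlap, and no such share was computed for ratios.

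Other partner ratios overlapped. Tsc1 relative to gig, whose proteins form 1 complex, was 1.14 to 1.32 in w1118 and 1.14 to 1.26 in cdk8K185 (exact permutation p = 0.6). Pi3K92E relative to Pi3K21B, the adaptor subunit of the same kinase, was 0.755 to 0.959 in w1118 and 0.911 to 1.23 in the mutant (exact permutation p = 0.2). For foxo relative to Akt, the first mutant library at 0.822 lay above all controls, which ran from 0.751 to 0.814, whereas the other mutant libraries were at 0.570 and 0.590 (exact permutation p = 0.4). For InR relative to chico, w1118 replicate 1 at 0.359 was above every other library (exact permutation p = 0.6).

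**Figure D4:**
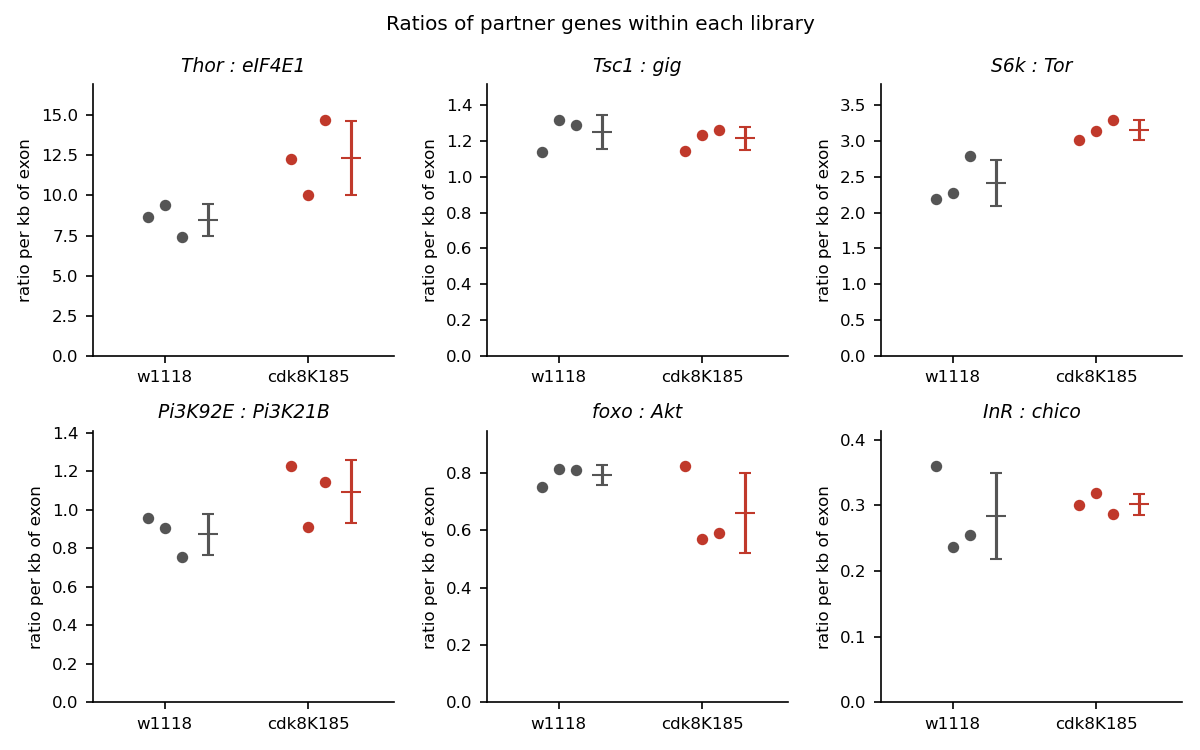
Points give the ratio of a pair of genes in each library, from CPM per kb, in grey for w1118 and red for cdk8K185, and bars give the arithmetic mean with its SD (n = 3), with axes from 0. The genotypes separate for Thor to eIF4E1 and for S6k to Tor and overlap for the other 4 pairs.

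The other genes of the pathway were grouped by role into lists with 60 further genes in the table, of which 56 were tested. Of these, 11 passed the edgeR threshold as higher and 13 as lower in the mutant, which is 42.9% called against the background of 36.9%. With library totals in place of TMM factors, the split turned to 21 higher and 8 lower. Over all tested genes, 43.8% were called in that setting, and 74.2% of those calls were higher. The calls of step, sgg, Nprl3, Atg1 and daw were then lost (edgeR adjusted p 0.0557 to 0.274), and genes such as 14-3-3epsilon, 14-3-3zeta, AMPKalpha, eIF4G1, Lip4 and Lnk were called as higher (edgeR adjusted p 0.00801 to 0.0415).

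Ligands and binding proteins were mostly lower. Of 7 genes tested, 4 were lower and 1 higher, where 17.0% of all tested genes were lower and 19.9% higher. The median log2 fold change was -0.77. Ilp6, the insulin-like peptide of the larval fat body, had 176, 126 and 120 CPM in the w1118 libraries, with 89.4, 58.7 and 70.8 CPM in those of cdk8K185, with no overlap (log2 difference -0.94 ± 0.20 SE, edgeR adjusted p 0.0115). Ilp2, made by the insulin-producing cells of the brain, had a log2 fold change of -1.40 (SE 0.43, edgeR adjusted p 0.0385) at levels of only 0.979 to 5.01 CPM, and its call failed on dropping w1118 replicate 1 or 2 or cdk8K185 replicate 2 or 3 (edgeR adjusted p up to 0.108). The proteins of ImpL2 and Sdr, which bind and sequester insulin-like peptides, had transcripts with log2 fold changes of -0.77 and -0.79 (edgeR adjusted p 0.00702 and 0.00494). Thus a ligand of the fat body and both secreted inhibitors were lower. Summed fat body markers were also lower in every mutant library, but this sum was carried by Fbp1, and without it the sums overlapped (23950 to 31700 CPM in controls, 14930 to 36650 CPM in mutants). Summed nervous system markers, at 350.4 to 386.2 CPM in controls and 225.7 to 238.6 CPM in mutants, were carried by Syt1 in the same way, and without it they overlapped as well (91.3 to 119.7 and 98.9 to 113 CPM). Sums without the most abundant marker were chosen after seeing the data. In the other lists, haemocyte sums without PPO2 stayed lower in every mutant library (789.1 to 956.9 CPM in controls, 468.1 to 676.5 CPM in mutants). Salivary gland sums without Sgs3 also stayed lower. Those of muscle without Act57B and gut without Amy-p overlapped, and disc sums without ap were higher in every mutant library. Without Fbp1, the largest part of the fat body sum was Lsp1beta, at 10050 to 27490 CPM over the libraries. The fat body markers Lsd-1 (log2 fold change -2.41, edgeR adjusted p 2.83e-05) and apolpp (-1.22, 0.00109) were lower as well, and 0 of 7 were called higher. Whether fat body make-up bears on Ilp6 was not tested. Ilp8, a relaxin-like peptide that signals growth disturbance through another receptor, had 0 to 2 counts per w1118 library and 31 to 81 per mutant library, at least 17.1-fold higher against a floor of 3 counts per library (edgeR adjusted p 0.00133). Ilp3 at 0.45 and Ilp5 at -0.55 on the log2 scale were not past the threshold, and Ilp1, Ilp4 and Ilp7 were too low to be tested.

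The remaining genes between receptor and FOXO moved in both directions. Of 12 tested, 2 were higher, 3 lower and 7 not called, where 36.9% of all tested genes were called. The median log2 fold change was 0.07. Pdk1, the kinase that activates Akt, was at 138 ± 7.27 and 133 ± 9.80 CPM (SD, n = 3), with a log2 difference of -0.05 (95% interval -0.27 to 0.18, edgeR adjusted p 0.723). The higher genes were trbl, an inhibitor of Akt (log2 difference 0.66 ± 0.11 SE, edgeR adjusted p 0.00408), and melt, a modulator of FOXO and TOR signalling at the membrane (0.49, SE 0.11, edgeR adjusted p 0.0109). Lower were dock, an adaptor that binds InR (-0.66, edgeR adjusted p 0.00599), step, a cytohesin that promotes insulin signalling (-0.54, edgeR adjusted p 0.00490), and the kinase gene sgg (-0.44, edgeR adjusted p 0.0281), whose call failed on dropping w1118 replicate 3 or any mutant library (edgeR adjusted p up to 0.108). The genes 14-3-3epsilon (log2 fold change 0.14, edgeR adjusted p 0.338) and 14-3-3zeta (0.26, edgeR adjusted p 0.0947), whose products hold phosphorylated FOXO in the cytoplasm, were not called, while DESeq2 did call 14-3-3zeta (adjusted p 0.0422).

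In the TOR complexes and their inputs, 5 of 23 tested genes were higher, 2 lower and 16 not called, a share called below the background. The core subunit genes raptor and rictor had log2 fold changes of 0.07 and 0.15 (edgeR adjusted p 0.742 and 0.271), and Rheb, which activates TOR, had 0.06 (95% interval -0.13 to 0.26, edgeR adjusted p 0.563). Lst8, a subunit shared by both TOR complexes, was higher and went from 27.5 ± 1.98 CPM in controls up to 43.3 ± 4.72 CPM (SD, n = 3), a log2 difference of 0.66 ± 0.11 (± SE, edgeR adjusted p 0.00396). The largest rise of the list was that of path, an amino acid transporter gene that promotes growth, from 113, 97.6 and 116 CPM in w1118 to 224, 165 and 215 CPM in cdk8K185 (log2 difference 0.88 ± 0.14 SE, edgeR adjusted p 0.00324).

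Of the genes of the GATOR complexes, which relay amino acid levels to TOR, Iml1, in the complex that inhibits TOR, was higher (log2 fold change 0.69, edgeR adjusted p 0.00580), as was Wdr24 of the opposing complex (0.38, edgeR adjusted p 0.0215), whereas Nprl3, a partner of Iml1, was lower (-0.43, edgeR adjusted p 0.0221). Nprl2, mio, Wdr59 and Nup44A were not called, at log2 fold changes of -0.03, -0.29, -0.19 and 0.25. The Nprl3 call failed on dropping any of the 6 libraries (edgeR adjusted p 0.0502 to 0.0685), and that of Wdr24 on dropping w1118 replicate 2 or any mutant library (up to 0.0643). DESeq2 called neither (adjusted p 0.0657 for Nprl3 and 0.108 for Wdr24), nor did edgeR with the replicate number as a block (0.0546 and 0.0538). PRAS40, an inhibitor of TOR complex 1, was higher (0.35, edgeR adjusted p 0.0156, up to 0.0759 on dropping w1118 replicate 2 or cdk8K185 replicate 1), and chrb, an inhibitor of TOR under stress, was lower at 133, 94.0 and 106 CPM in the controls, with 71.3, 69.6 and 50.5 CPM in the mutants (-0.80, SE 0.18, edgeR adjusted p 0.0126). Its paralog scyl was not called (0.08, edgeR adjusted p 0.587). The AMPK subunit genes AMPKalpha and SNF4Agamma had log2 fold changes of 0.16 and 0.09 (edgeR adjusted p 0.201 and 0.552).

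Among 9 outputs of TOR and S6K, 1 gene was higher and 2 were lower, where 36.9% of all tested genes were called. The median log2 fold change was -0.14. The translation factor gene eIF4B fell from 20.1 ± 1.43 to 10.9 ± 0.669 CPM (SD, n = 3), by -0.89 ± 0.11 on the log2 scale (± SE, edgeR adjusted p 0.00118), and Atg1, the kinase gene that starts autophagy when TOR is low, had -0.63 (SE 0.15, edgeR adjusted p 0.0169, up to 0.0724 on dropping cdk8K185 replicate 2 or 3). REPTOR, a transcription factor gene restrained by TOR, was higher (0.44, SE 0.13, edgeR adjusted p 0.0375), a call that stood on dropping w1118 replicate 1 and failed on dropping any of the other libraries (edgeR adjusted p up to 0.133) and with RLE size factors (0.0607). RpS6, whose product S6K phosphorylates, stood at 1344, 1458 and 1550 CPM in the controls, and in the mutants at 1122, 1080 and 1239 CPM. The groups did not overlap, as for the 24.4% of all tested genes that were lower in this way. The log2 fold change of -0.34 was short of the threshold (edgeR adjusted p 0.0633). RpS6 was called in 3 of 13 refits: with DESeq2 (adjusted p 0.00385), with RLE size factors (0.0434) and with a filter of 10 counts in every library (0.0483). It was not called with library totals (log2 fold change -0.12, edgeR adjusted p 0.466) or with the replicate number as a block (0.107). Nor was it called on dropping any library (edgeR adjusted p 0.0544 to 0.183). Levels of eIF4E1 (log2 fold change -0.14, edgeR adjusted p 0.211) and eIF4G1 (0.28, edgeR adjusted p 0.0992) were not called.

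FOXO target genes passed the test in both directions. The list held 10 tested genes, including InR and Thor and 3 genes also counted above (step, Lnk and Ilp6). Of the 10, 2 were higher and 4 lower, where 19.9% of all tested genes were higher and 17.0% lower. The median log2 fold change was 0.23. The triglyceride lipase gene bmm had 45.3, 43.5 and 43.1 CPM in the w1118 libraries, with 82.6, 86.7 and 73.1 CPM in those of cdk8K185, a rise of 0.88 on the log2 scale (SE 0.09, edgeR adjusted p 0.000638). The coactivator gene srl was higher as well (0.42, edgeR adjusted p 0.0161, up to 0.0556 on dropping w1118 replicate 2 or cdk8K185 replicate 3). The gene l(2)efl, which encodes a small heat shock protein, fell from 1040 ± 113 to 213 ± 71.5 CPM (SD, n = 3), by -2.29 ± 0.27 on the log2 scale (± SE, edgeR adjusted p 0.00105), and daw, an activin-like ligand gene that FOXO is known to repress in muscle, had -0.50 (edgeR adjusted p 0.0154). As a repressed target, daw is counted among the lower genes by its own level only. Lip4 at 0.29 and Lnk at 0.16 on the log2 scale were not past the threshold (edgeR adjusted p 0.109 and 0.270).

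**Figure D5:**
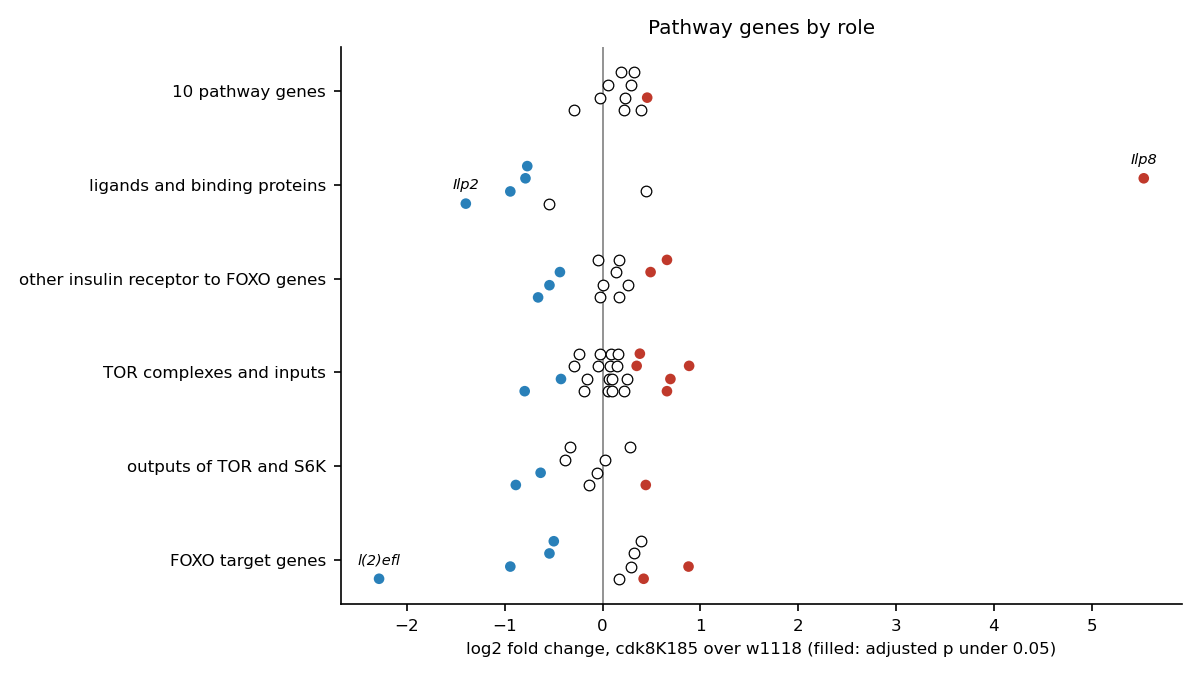
Each point is a tested gene at its log2 fold change of cdk8K185 over w1118, in rows by role, filled where the edgeR adjusted p was under 0.05 (red higher, blue lower) and open where it was not. The 10 pathway genes lie between -0.29 and 0.46 with 1 filled point, and the rows around them reach -2.29 for l(2)efl and 5.53 for Ilp8, whose fitted value depends on near-zero control counts.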

How the data were processed

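The authors deposited raw counts per gene, as whole numbers with 1 column for each of 6 libraries. Processing notes of the submitters name STAR, featureCounts, DESeq2 and the build dm6, with no versions. The strand setting and annotation release are not given in the sources used here. Counts were tested with edgeR 4.0.16 in R 4.3.3 over all genes passing filterByExpr (minimum count 10, total 15), with TMM factors and genotype as the sole term of a robust quasi-likelihood model, two-sided, with Benjamini-Hochberg adjustment over 10632 genes. SE is the log2 fold change over the square root of F, and 95% intervals use the fit's degrees of freedom. Symbols, exons and coordinates come from Ensembl 115 (BDGP6.54, dm6 coordinates), matching 17477 of 17562 identifiers. Genes, pathway lists and tissue markers were chosen with earlier results of these data known. The 10 genes are all named, with list genes past the threshold and up to 3 abundant others per list. Named after values were seen were raptor, rictor, Rheb, Pi3K21B, Nprl2, mio, Wdr59, Nup44A, Fbp1, Lsp1beta, Lsd-1, apolpp, Sgs1, Sgs3, fkh, Syt1, ap, PPO2, Act57B and Amy-p. The ratios were also chosen after values were seen. The list gene susi was not matched. Depth sets counting error only, and p-values reflect the spread between pools. Alternatives were DESeq2 1.42.0, limma-voom 3.58.1, RLE or no composition factors, other filters, a replicate block, a threshold of 0.01 and leaving out each library. The test was tested on simulated data.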

Additional observations from a re-analysis of the deposited data

How the results depend on the processing

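For the 10 genes, 127 of 140 outcomes kept the direction and the side of the threshold, 9 brought a gene past it, 0 lost a call and 4 turned a direction. For each gene, 13 outcomes were refits. The other was the main fit read at a threshold of 0.01, which could not add a call or turn a direction. The count of called genes among the 10 was 1 in the comparison of all libraries and 6 with library totals, and it ran from 1 to 3 when a single library was left out. Over all genes, 2111 differed at an adjusted p under 0.01, and of the other pathway genes 12 did. Over all genes, leaving out a library gave 2746 to 3844 calls, and for the other pathway genes 17 to 23. Of all calls, 53.9% were higher in cdk8K185 with TMM factors and 74.2% with library totals, the setting with 3452 higher and 1203 lower. The turned directions were all of uncalled genes. With library totals, the log2 fold changes of Akt (0.19), Pdk1 (0.16) and eIF4E1 (0.071) turned positive. Leaving out a library took Akt from -0.069 to 0.037, with positive values without w1118 replicate 1 (0.037) and cdk8K185 replicate 1 (0.020). It took Tor from -0.022 without w1118 replicate 3 to 0.14, and SNF4Agamma down to -0.022 without cdk8K185 replicate 1. For the other 37 genes named, 452 of 516 such outcomes kept direction and side, 10 gained a call and 51 lost it. Of these losses, 12 came from the threshold of 0.01 alone.

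Replicate numbers are shared by the labels of both genotypes, yet nothing says that they pair the pools, and deviations of same-numbered libraries correlated at -0.195, 0.508 and 0.562. Each of the libraries numbered 2 and 3 correlated best with its own number, and those numbered 1 did not. With the replicate number as a block, 3988 genes differed over all, 1 of the 10 genes (S6k, edgeR adjusted p 0.0189) and 22 of the other pathway genes.

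Depth limits the low transcripts alone: Ilp1, Ilp4, Ilp7 and Sesn could not be tested, while the 10 genes had at least 257 counts in every library.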
